A study of Phaffia rhodozyma with 29 samples.

Results

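The comparison set the RNA-seq libraries of a strain of Xanthophyllomyces dendrorhous, a red basidiomycete yeast listed as Phaffia rhodozyma in the sample records, that carries a FLAG epitope tag on the transcription factor Sre1 against those of cyp61-, a strain with an interrupted CYP61 gene. Each strain has 3 libraries, A, B and C, so 6 of the 29 samples and 6 of the 18 RNA-seq libraries of the series enter the contrast. All genes of the count tables were taken, 6469 on 22 contigs, and 6228 of them passed the filter on low counts and were tested. Both strains were made from the wild-type strain CBS 6938 and were grown to the late exponential phase. The design text gives biological triplicates and names a pair of tagged strains, CBS.FLAG.SRE1N and, in the cyp61- background, CBS.cyp61-.FLAG.SRE1. The sample records of the tagged RNA-seq libraries use neither name, so whether CYP61 is interrupted in them too is not known here. The other groups used below are wild type (N), wild type (Ne), the SRE1 deletion strain sre1-, and the double mutant cyp61- sre1-, with 3 libraries each. The p-values measure the spread between the libraries of a group. Each library is a bulk measurement, in which fewer cells with a transcript and less of it per cell cannot be told apart.

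Sre1 is the fungal member of the SREBP family, membrane-bound transcription factors that are cut when sterols run low, after which the freed N-terminal part enters the nucleus and raises genes of sterol synthesis. CYP61 is the cytochrome P450 that acts as C-22 sterol desaturase late in ergosterol synthesis, and strains of this yeast without it make no ergosterol and more carotenoids. A tagged protein is used to recover a factor with its DNA, and the tag by itself does not say how active the factor is. The count tables carry gene numbers without symbols or products, so SRE1, CYP61 and the genes of sterol and carotenoid synthesis could not be found among the rows. Neither genotype was therefore checked against its own transcript, and genes are given by number and contig.

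The tagged strain differed from cyp61- at many genes, in both directions and more strongly in its falls. Of the genes tested, 971 (15.6%) were higher in the tagged strain and 1033 (16.6%) were lower at an edgeR adjusted p under 0.05, together 2004 (32.2%). Large changes were more often falls: 190 genes (3.05%) were called and at least 2-fold higher, against 412 (6.62%) at least 2-fold lower, and past 4-fold the counts were 26 and 67. For 3259 genes (52.3%) the 3 libraries of one strain lay above all 3 of the other, with the tagged strain higher for 1639 (26.3%) and lower for 1620 (26.0%). The median log2 fold change of all genes was 0.02. For 4192 genes (67.3%) the 95% interval of the fold change lay within 2-fold in both directions, and 3558 of these were not called. The number of calls depended on single libraries, falling to 1303 without tagged library A and to 1155 without cyp61- library B. No gene called both with all libraries and without either of these differed in direction between the 2 fits. The fits share all their other libraries, so a change of direction was hardly possible and this says little.

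**Figure D1:**
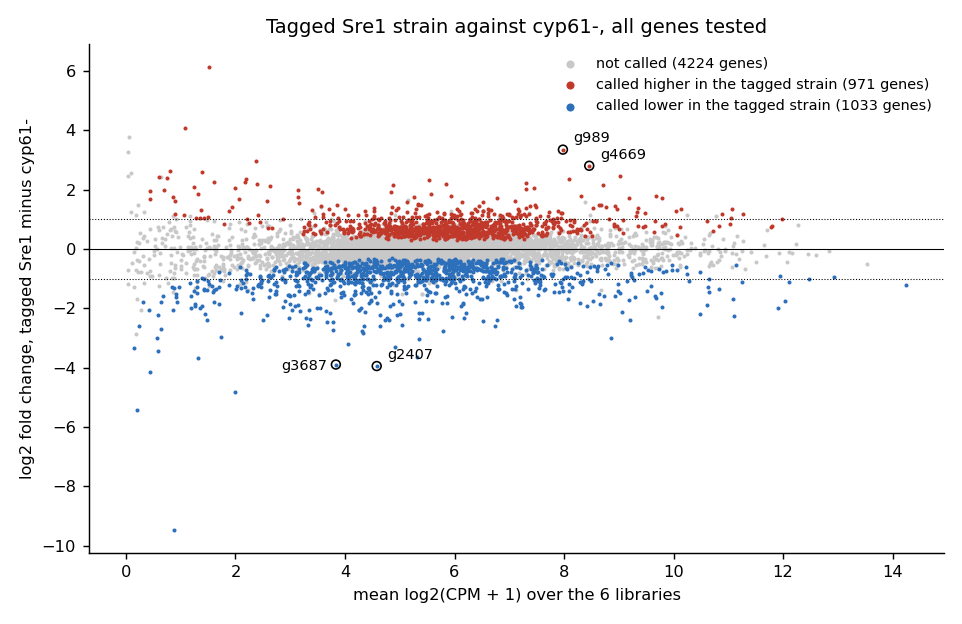
Each point is a gene, placed by its mean log2(CPM + 1) over the 6 libraries (x axis) and its log2 fold change, tagged Sre1 minus cyp61- (y axis), with dotted lines at 2-fold. The 971 higher (red) and 1033 lower (blue) genes lie at every level, and the lower ones reach further from 0; the lowest point, g6449, had no read in any tagged library.

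Library totals ran from 9300589 reads (tagged A) to 20663214 reads (tagged C), with cyp61- between 17734121 and 18921469. Reads were spread over more genes in the tagged strain: the 10 genes with most reads took 8.48% to 9.54% of the reads there and 10.4% to 14.7% in cyp61-, and it took 306 to 322 against 208 to 281 genes to reach 50% of the reads. The gene with the highest mean CPM over the 18 RNA-seq libraries, g3459 on contig 0, was chosen after its values were seen. It stood at 24075, 42113 and 23663 CPM (read counts scaled to library size with TMM factors) in cyp61- A to C and at 12415, 15307 and 11300 CPM in the tagged strain. All tagged libraries lay below all cyp61- libraries, and the log2 fold change was -1.20 ± 0.29 (SE; edgeR adjusted p = 0.00568). Among the 100 genes of highest mean CPM over the 18 libraries 9 were called higher and 29 lower in the tagged strain, beside 15.6% and 16.6% of all genes. The genes were split into 5 equal bins by this mean, which includes the other strains. The share called higher ran from 9.87% in the lowest bin to 20.4% in the next to highest and 14.0% in the highest, while the share called lower stayed between 14.1% and 19.2%.

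The largest rise that met the size, level and non-overlap criteria was that of g989 on contig 3. Its level was 86.2, 76.4 and 72.9 CPM in cyp61- A to C and 792, 743 and 875 CPM in the tagged strain. Every tagged library lay well above every cyp61- library, 10.2-fold on the fitted scale (log2 fold change 3.36 ± 0.17, edgeR adjusted p = 2.6e-09). Wild type (N) stood between the strains at 267 ± 13.6 CPM (SD, n = 3) and the double mutant below both at 40.6 ± 6.84 CPM (SD, n = 3). The next, g4669 on contig 4, had 92.2, 86.1 and 245 CPM in cyp61- and 971, 856 and 1144 CPM in the tagged strain. The strains did not overlap (log2 fold change 2.81 ± 0.75, edgeR adjusted p = 0.00995), but the call was lost without cyp61- library B (adjusted p = 0.0548). It also varied between libraries elsewhere: in wild type (Ne) its C library reached 2832 CPM and in sre1- 4331 CPM, where A and B lay between 376 and 681 CPM. With these 2 groups left out of the fit, the edgeR adjusted p for g4669 was 0.000117.

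The largest falls were those of g2407 on contig 8 and g3687 on contig 0. In cyp61- A to C g2407 had 163, 70.2 and 51.6 CPM, and in the tagged strain 3.31, 6.47 and 8.40 CPM. All tagged values were lower than all cyp61- values (log2 fold change -3.94 ± 1.15, edgeR adjusted p = 0.0155). The call on g2407 was lost without tagged library A (adjusted p = 0.0695) or cyp61- library A (adjusted p = 0.0506). In sre1- its library C reached 5186 CPM, where A and B had 125 and 110 CPM. With sre1- and wild type (Ne) left out of the fit, the edgeR adjusted p for g2407 was 6.34e-05. For g3687 the values were 53.0, 73.7 and 23.6 CPM in cyp61- and 4.21, 3.61 and 2.52 CPM in the tagged strain, again without overlap. Its log2 fold change was -3.89 ± 0.40 (edgeR adjusted p = 1.07e-05), and means above that of cyp61- were found in wild type (N), at 98.7 ± 16.0 CPM, and in the double mutant, at 154 ± 58.3 CPM (SD, n = 3 each). In all, 148 higher and 297 lower genes met the criteria from which these 4 were taken.

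Genes nearly unread in one strain and read in the other were few. A single gene, g4615 on contig 4, chosen by this after its values were seen, stayed under 1 CPM in every tagged library while reaching at least 3 CPM in every cyp61- library. It had 247, 209 and 208 reads in cyp61- A to C and 4, 11 and 7 in the tagged strain, or 12.2, 10.6 and 8.96 against 0.358, 0.484 and 0.267 CPM (log2 fold change -4.82 ± 0.50, edgeR adjusted p = 1.26e-05). Wild type (N) was higher than both, at 37.9 ± 1.09 CPM, while wild type (Ne), from the other set of count tables, stood between them at 2.74 ± 0.73 CPM (SD, n = 3 each). No gene showed the opposite pattern. Called genes without any read in the tagged strain numbered 2: g215 on contig 1 had 10, 9 and 1 reads in the cyp61- libraries, and g6449 on contig 10 had 29, 290 and 0. Library B thus held most reads of g6449, and its C libraries were at 0 in both strains. The call on g6449 (edgeR adjusted p = 0.0477) was lost with DESeq2 (adjusted p = 0.0951), with the library letter as a block (adjusted p = 0.0572), when thinned to the smallest library (adjusted p = 0.0563) and without any 1 library but cyp61- C (adjusted p of 0.0529 to 0.265). That on g215 (edgeR adjusted p = 0.0196) was lost without tagged C, cyp61- A or cyp61- B (adjusted p of 0.0571 to 0.0622). On the other side g2976 on contig 20 and g6107 on contig 21, also seen in the values first, were high in tagged library A alone, at 53.3 and 16.2 CPM against 3.08 and 1.10 CPM in B and 0.267 and 0.114 CPM in C. The cyp61- libraries held 0.172 to 0.354 CPM of either gene, so tagged C lay among or below them, although both genes were called (edgeR adjusted p = 0.00524 for g2976 and 0.0248 for g6107). Without tagged library A neither was (adjusted p = 0.102 and 0.618), and the call on g6107 was also lost without any 1 cyp61- library (adjusted p of 0.0621 to 0.0856).

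Both strains were also set beside wild type (N). These comparisons share their libraries with the contrast, which chose the genes, and with each other, so their values are only a description. The 971 higher genes had a median log2 fold change from wild type (N) of 0.72 in the tagged libraries and of 0.03 in the cyp61- libraries. For the 1033 lower genes the medians were -0.87 and 0.01. Over all genes tested both medians were 0.02. The near-0 medians in cyp61- cover genes on both sides of wild type (N), with quartiles of -0.30 and 0.35 for the higher and -0.42 and 0.38 for the lower genes, beside -0.36 and 0.38 for all genes. Rank correlations between libraries, over all genes tested, were 0.973 to 0.984 within the tagged strain, 0.969 to 0.983 within cyp61- and 0.885 to 0.957 between the strains, and with wild type (N) they were 0.855 to 0.885 for the tagged strain and 0.902 to 0.947 for cyp61-.

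**Figure D2:**
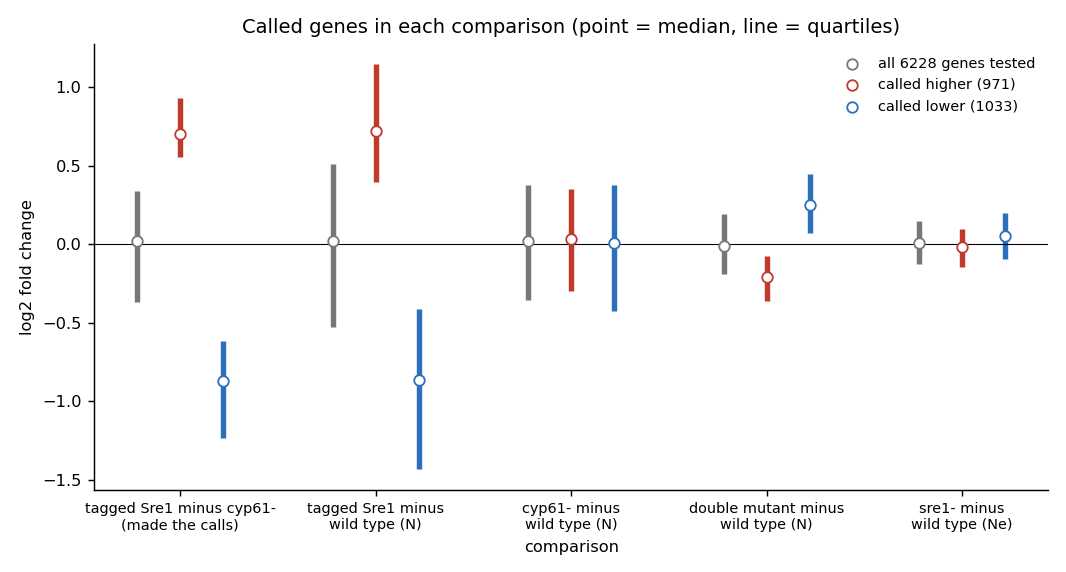
Median (circle) and quartiles (line) of the log2 fold change (y axis) of all 6228 genes tested (grey) and of those called higher (red) or lower (blue) between tagged strain and cyp61-, in 5 comparisons. Relative to wild type (N) the called genes sit away from 0 in the tagged libraries, at 0.72 and -0.87, have medians near 0 in cyp61- with quartiles on both sides of it, and lie on the opposite side in the double mutant, at -0.21 and 0.25.

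The double mutant against wild type (N) and sre1- against wild type (Ne) share no library with the contrast. The double mutant and cyp61- both have an interrupted CYP61, which for the tagged strain is not known. A change that goes with the interruption can therefore enter both comparisons with opposite signs, and its share was not tested. The genes called higher tended to be lower in the double mutant than in wild type (N): 838 of 971 (86.3%) were below 0 there, with a median log2 fold change of -0.21, where 51.4% of all genes were below 0. Genes lower in the tagged strain were above 0 there in 846 of 1033 cases (81.9%), with a median of 0.25, where 48.6% of all genes were above 0. Over the 6228 genes the log2 fold changes of the 2 comparisons correlated at -0.38 (Pearson) and -0.50 (Spearman), a description across genes, which are not independent replicates, within 1 set of count tables. Libraries of the same letter deviated together in the tagged strain and cyp61-, which was not measured for the double mutant and wild type (N). The correlation was therefore also taken with 1 letter for the tagged strain and cyp61- and another for the double mutant and wild type (N). Pearson values from -0.52 to -0.16 were found. With sre1- against wild type (Ne) the Pearson correlation was -0.11, and the medians of the higher and lower genes there were -0.02 and 0.06. With wild type (Ne) against wild type (N), which crosses 2 sets of count tables, it was 0.17. Few genes passed the test in the double mutant itself, 48 (0.771%), so these signs rest mostly on changes that were not called there.

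**Figure D3:**
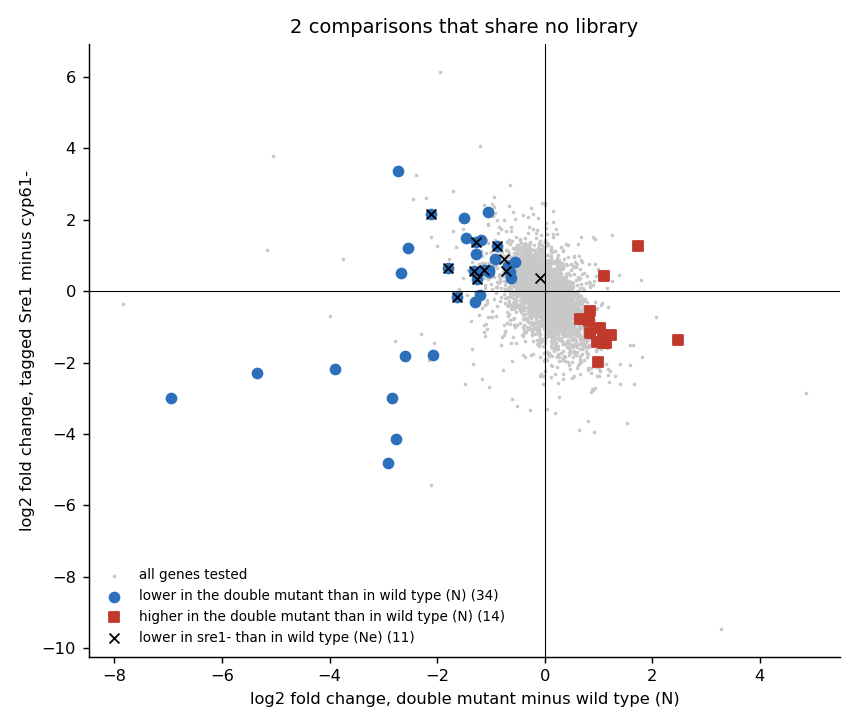
Each point is a gene, placed by its log2 fold change in the double mutant against wild type (N) (x axis) and in the tagged strain against cyp61- (y axis). Most of the 34 genes called lower in the double mutant (blue circles) and of the 11 called lower in sre1- (crosses) lie above 0 on the y axis, and 12 of the 14 called higher in the double mutant (red squares) lie below 0. The blue circles furthest below 0 are the 6 on contig 4, at -4.82 to -1.79, with g6338 on contig 10 at -2.98 and g4988 on contig 2 at -1.82. Contigs are not marked.

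Genes that fell on SRE1 deletion in other libraries mostly had values above 0 in the tagged strain against cyp61-. The test of sre1- against wild type (Ne) called 11 genes lower (0.177% of those tested), and 6 of the 11 (54.5%) were called higher in the tagged strain here, against 15.6% of all genes, and 0 were called lower by edgeR. Their median log2 fold change was 0.59, from -0.16 to 2.16, with 10 of 11 above 0, where 51.0% of all genes were, and 7 with all tagged libraries above all cyp61- libraries, as held for 26.3% of all genes. Side by side, their medians against wild type (N) were 2.00 in the tagged strain and 1.46 in cyp61-. The steepest fall in sre1- was that of g4728 on contig 4, which had 177, 142 and 175 CPM in cyp61- A to C and 409, 231 and 281 CPM in the tagged strain. All tagged values were higher (log2 fold change 0.90 ± 0.18, edgeR adjusted p = 0.00161). In the other set of count tables sre1- held 35.1 ± 1.92 CPM and wild type (Ne) 191 ± 30.6 CPM (SD, n = 3 each). The second, g904 on contig 3, had 2384, 2115 and 3722 CPM in cyp61- and 3408, 3914 and 5528 CPM in the tagged strain, where the double mutant had 43.0 ± 5.71 CPM and wild type (N) 150 ± 25.1 CPM (SD, n = 3 each). Cyp61- C lay above tagged A, and the difference between the strains did not pass the test (log2 fold change 0.64 ± 0.30, edgeR adjusted p = 0.113). It passed when cyp61- library C was left out (adjusted p = 0.0447), with the 4 groups of paired, trimmed reads alone (adjusted p = 0.0472) and with the 2 strains alone and the library letter as a block (adjusted p = 0.0221).

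The same test called 3 genes higher in sre1- (0.0482%), and they went different ways. In g2015 on contig 5 the values were 1.72, 1.72 and 1.03 CPM in cyp61- and 0.268, 0.440 and 0.611 CPM in the tagged strain. They rest on 35, 34 and 24 reads in cyp61- and 3, 10 and 16 in the tagged strain. Tagged and cyp61- values did not overlap and the gene was called lower (log2 fold change -1.63 ± 0.45, edgeR adjusted p = 0.0121). In the other set of count tables sre1- held 157 ± 52.7 CPM and wild type (Ne) 39.0 ± 13.9 CPM, while wild type (N) held 7.44 ± 1.22 CPM (SD, n = 3 each). For g1283 on contig 3 there were 16, 3 and 11 reads in cyp61- and 4, 5 and 16 in the tagged strain, values that overlap (log2 fold change -0.20 ± 0.60, edgeR adjusted p = 0.817). The third, g4727 on contig 4, was also among the genes higher in the double mutant and is described with them.

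Without SRE1, a strain with interrupted CYP61 had 14 genes above and 34 below wild type (N) (0.225% and 0.546%). Of the 14 genes higher in the double mutant, 12 were called lower in the tagged strain than in cyp61- (85.7%, against 16.6% of all genes), 1 higher and 1 not called, with a median log2 fold change of -1.20. Against wild type (N), whose libraries also made the list, their medians were -0.20 in the tagged strain and 0.74 in cyp61-. The gene with the steepest rise in the double mutant, g5770 on contig 6, had 4.83, 4.39 and 4.83 CPM in cyp61-, 1.88, 2.02 and 1.60 CPM in the tagged strain and 29.3 ± 3.49 CPM in the double mutant (SD, n = 3). Tagged and cyp61- values did not overlap (log2 fold change -1.36 ± 0.23, edgeR adjusted p = 0.000485). The member called higher was g4727, at 20.9, 20.9 and 24.6 CPM in cyp61- and 48.1, 55.9 and 54.7 CPM in the tagged strain. By number it lies on contig 4 between g4728, the steepest fall in sre1-, and g4726, the member not called (log2 fold change 0.42, edgeR adjusted p = 0.0808). Whether their position bears on their values was not tested. All tagged values were above all cyp61- values (log2 fold change 1.26 ± 0.21, edgeR adjusted p = 0.000511), and the tagged mean of 52.9 ± 4.17 CPM stood beside 53.3 ± 10.9 CPM in the double mutant, 16.0 ± 5.46 CPM for wild type (N) and 27.4 ± 0.70 CPM for sre1- (SD, n = 3 each).

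The 34 genes lower in the double mutant had values on both sides of 0. In the tagged strain 19 (55.9%) were called higher than in cyp61-, against 15.6% of all genes, and 7 (20.6%) lower, close to the 16.6% of all genes, and 8 were not called, with a median log2 fold change of 0.57 and a range from -4.82 to 3.36. Against wild type (N), whose libraries also made this list, their medians were 0.23 in the tagged strain and -0.65 in cyp61-. Split by contig, a choice made after the values were seen, all 6 members on contig 4 were below 0 and 5 of them were called lower, with a median of -2.64, where 106 of the 588 genes tested on that contig were called lower. By number these were near neighbours, g4613, g4615 and g4616 in one place and g4821, g4822 and g4824 in another. Whether neighbours vary independently was not tested. Of the 28 members elsewhere 19 were called higher and 2 lower, with a median of 0.67. The pair with the steepest fall in the double mutant, g4821 and g4824, both lie on contig 4. For g4821 the values were 6074, 3108 and 36.1 CPM in cyp61- A to C and 444, 673 and 47.9 CPM in the tagged strain. The C library was low in both strains, and there tagged was not below cyp61-, whereas in A and B it was. The call (log2 fold change -2.98 ± 1.06, edgeR adjusted p = 0.0408) was lost with the library letter as a block and all libraries (adjusted p = 0.0511) but not with this block and the 2 strains alone (log2 fold change -1.95, adjusted p = 0.0434). It was also lost with the 2 strains alone and no block (adjusted p = 0.124) and without tagged A (0.103), tagged C (0.11), cyp61- A (0.175) or cyp61- B (0.0818), all adjusted p from edgeR. In g4824 the same pattern stood at 7168, 4306 and 75.0 CPM in cyp61- and 1135, 1088 and 121 CPM in the tagged strain. Here the difference was not called (log2 fold change -2.30 ± 1.00, edgeR adjusted p = 0.0863) but was without cyp61- library C (adjusted p = 0.00789). Library C of sre1- was also the lowest of its group for both genes, at 699 and 998 CPM. In the other groups library C was instead the highest for both genes. It held 4357 and 11721 CPM in wild type (N), 4626 and 5787 CPM in wild type (Ne), and 31.2 and 429 CPM in the double mutant. Of the 11 genes lower in sre1-, 8 were among the 34, which is 72.7% of the shorter list and 23.5% of the longer.

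**Figure D4:**
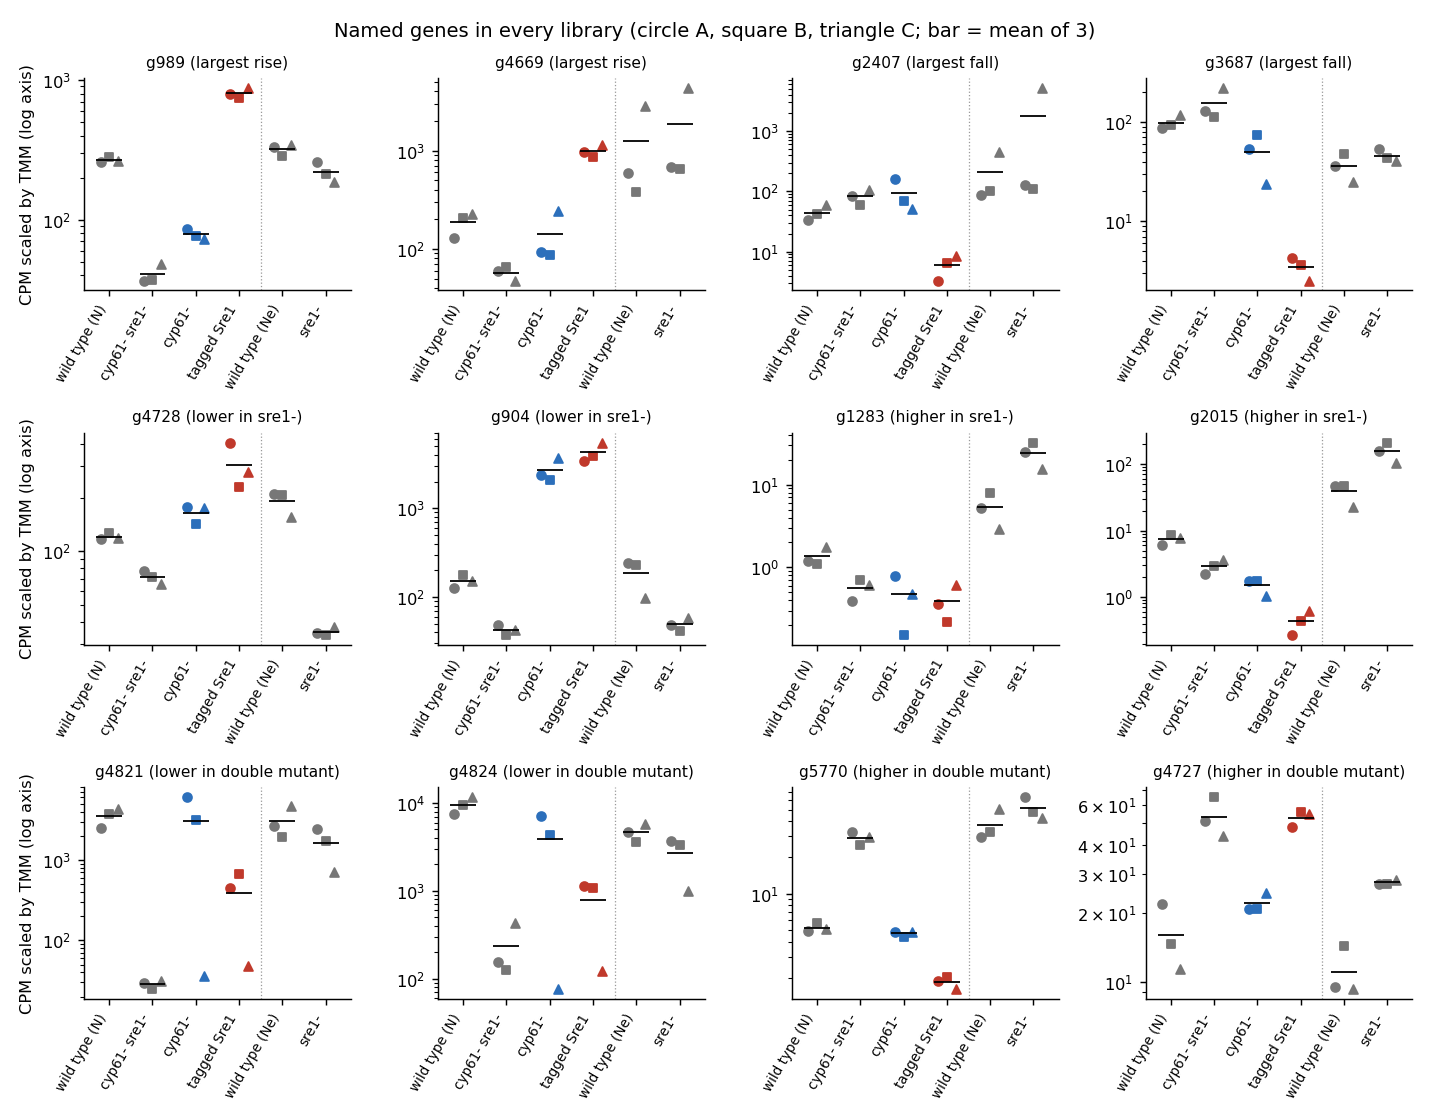
CPM scaled by TMM on a log axis (y axis) of the 12 genes named by rule, in every library of the 6 groups (x axis), with cyp61- in blue, the tagged strain in red, other groups in grey, and bars at the mean of 3; groups right of the dotted line come from the other set of count tables. In g989 the tagged libraries lie between 743 and 875 CPM and the cyp61- libraries between 72.9 and 86.2 CPM, and in g4821 and g4824 the C libraries of both strains lie far below A and B.

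The list counts varied with the libraries used. Over the alternative settings and with libraries left out, 4 to 9 of the 11 genes and 13 to 21 of the 34 were called higher, and 11 or 12 of the 14 were called lower. The count of the 34 called lower moved more, from 7 to 2 with the 2 strains alone, to 3 without both A or both B libraries, to 4 without tagged C, cyp61- A or cyp61- B, and to 8 without cyp61- C. Membership of the double-mutant lists was itself unsteady: 48 genes were called between the double mutant and wild type (N) with all libraries, but 5 without double-mutant library A, 11 without its library C, 16 to 19 without any 1 library of wild type (N), and 106 without double-mutant library B. With these libraries left out the share of the 971 genes below 0 in the double mutant ran from 80.1% to 86.6%, and that of the 1033 genes above 0 from 76.4% to 83.6%.

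Contigs differed little. On the 11 contigs with at least 20 genes tested, 28.1% (contig 6) to 36.2% (contig 9) of genes were called, and median log2 fold changes lay between -0.06 and 0.08. Called genes also stood in short runs of the same direction in the order of the tables: 35 runs of 3 or more genes held 119 of the higher genes and 49 held 169 of the lower, whereas 646 higher and 616 lower genes stood alone. The longest had 7 higher genes on contig 2 (median log2 fold change 0.74) and 6 lower genes each on contigs 1 and 8 (medians -1.01 and -1.14). No coordinates were used, so distances within a run are not known, and no test was made of their number.

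The direction of the called genes was also looked at in libraries that had no part in the call. With both libraries of 1 letter left out, the genes called from the other letters, among the 6228 tested with all libraries, were read in the pair left out. Without A, 361 genes were called higher and 359 of them were above 0 in the A pair, and 528 of 533 lower genes were below 0. For B the counts were 453 of 455 and 557 of 558, and for C 672 of 688 and 792 of 812. The medians in the pair left out were 0.54 to 0.92 for higher and -1.06 to -0.70 for lower genes, with 50.2% to 51.1% of all genes above 0.

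**Figure D5:**
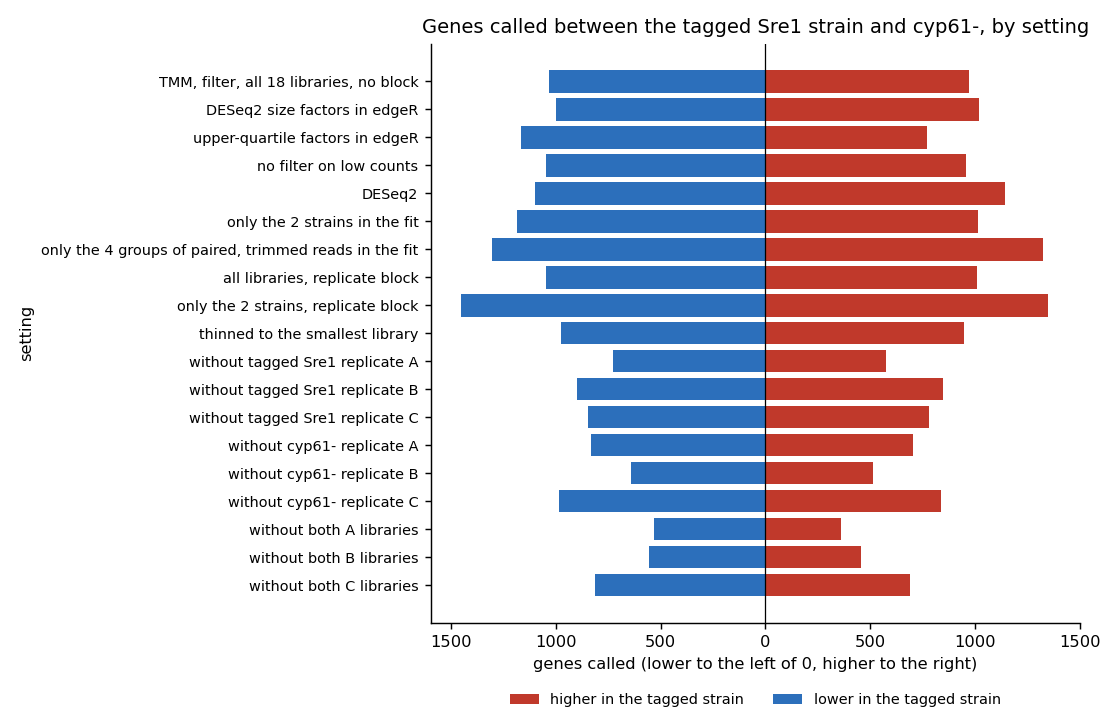
Number of genes called lower (blue, left of 0) and higher (red, right of 0) between tagged strain and cyp61- (x axis) under each setting (y axis), from the fit reported here at the top. The counts run from 361 higher and 533 lower without both A libraries to 1349 higher and 1456 lower with the 2 strains alone and the letter as a block.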

How the data were processed

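Counts of reads per gene were deposited by the authors without normalization, per the file headers, for 6469 genes on 22 contigs. The headers of the tagged strain, cyp61-, double mutant and wild type (N) tables name paired, trimmed reads, and those of sre1- and wild type (Ne) do not. The submitters' processing notes name Bowtie2 2.3.5.1, SAMtools, edgeR and DESeq2 with no role. The sources used here give no counter, gene models or strand setting. Genes that overlap, lie antisense or have near-identical copies may therefore share reads. ChIP-exo files were not used here.

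The 18 libraries entered 1 quasi-likelihood fit in edgeR 4.0.16 (with limma 3.58.1 under R 4.3.3), with TMM scaling, no term besides group, and the 6228 genes that passed filterByExpr. A call is a Benjamini-Hochberg adjusted p under 0.05 among these genes. Standard errors were derived from fold changes and F statistics. 10 CPM stand for 112 to 262 reads in the 6 libraries. Replicates differed by a mean chi-square per gene of 52.9 to 202, so none was taken as a repeat.

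Replicate letters, from the sample titles, pair the libraries: deviations from the strain means correlated across genes at 0.32, 0.43 and 0.36 for the same letter and at -0.42 to 0.00 for different letters. The deviations of the 3 libraries of a strain sum to 0. Positive same-letter values therefore push the different-letter values below 0, and the latter are no separate evidence of pairing. Named genes had adjusted p under 0.05, a change of at least 2-fold, a mean of at least 10 CPM in the 6 libraries and no overlap; the 2 of largest change per direction were taken, with the 2 of largest change per direction of each list made in other libraries. The comparison, lists and rule were chosen with earlier results of these data known. Lists have counts and medians and no test. The 4 pathway lists could not be matched, since the tables pair gene numbers with no symbol. Alternatives were other scalings, no filter, DESeq2 1.42.0, fewer groups, the letter as a block, thinning, glmTreat at 1.5-fold and left-out libraries.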

Additional observations from a re-analysis of the deposited data

How the results depend on the processing

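Against 2004 genes called, the other settings with all 6 libraries gave 1927 (thinned to the smallest library) to 2805 (the 2 strains with the replicate block). The replicate block gave 2059 calls with all libraries, and the 2 strains alone gave 2205 without it; DESeq2 gave 2241 and the 4 groups of paired, trimmed reads 2632. The pairing ended no call on a gene named above except, with all libraries in the fit, those on g4821 and g6449. With the 2 strains alone g2976, g6107, g215 and g6449 had no value, so their calls were not checked there. Upper-quartile factors moved the share of calls that were higher from 48.5% to 39.8%, the median of all genes from 0.02 to -0.05, and the median log2 fold changes to 0.52 for the 11 genes lower in sre1- and -1.26 for the 14 higher in the double mutant. With 1 library left out there were 1155 to 1820 calls, 511 to 848 higher and 644 to 984 lower, with 122 to 247 higher and 297 to 492 lower by 2-fold; the list medians ran from 0.46 to 0.74 (lower in sre1-), 0.51 to 0.62 (lower in the double mutant) and -1.28 to -1.11 (higher in it). Left out by letter, a choice made after seeing the data, the A libraries left 894 calls (361 higher, 533 lower, 106 at least 2-fold higher) and the B libraries 1016 (458 and 558); cyp61- B and the A libraries set the lowest counts, and the cause was not tested. Without both A or both B libraries g4669, g2407, g2015, g4821, g6107, g215 and g6449 were no longer called. Where 602 genes were called and at least 2-fold apart, glmTreat against 1.5-fold called 369 of all genes tested, 104 higher and 265 lower. g1283, never called, changed sign to 0.20 when thinned, 0.13 without tagged B, 0.34 without cyp61- A and 0.39 without both A libraries, over a range of -0.80 to 0.34 with 1 library left out. Of 314 values of named genes under alternatives, 264 kept direction and call. Missing values, such as those of g2407 with DESeq2 and g215 when thinned, are not among the 314. Contig medians lay between -0.08 and 0.09 with DESeq2 size factors and with 1 library left out, the settings run for them. Depth limits genes such as g1283 with 3 to 16 reads a library.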
